A study of Sus scrofa with 23 samples.

Results

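EDN1 and INHBA encode secreted factors. EDN1 is the gene of endothelin 1, a peptide that constricts blood vessels. INHBA is the gene of the inhibin beta A chain, which as a homodimer forms activin A, a growth factor of the TGF-beta family. They are 2 of the 6765 genes that could be named on a porcine expression array, and each had 1 probe set. The 2 genes were chosen by their annotation and with earlier results from these same arrays in view, so their levels and ranges are a description and are not tested. Bone marrow cells of Large White x Landrace F1 pigs were cultured with recombinant human CSF1 to give bone marrow-derived macrophages. Cultures were then exposed to lipopolysaccharide (LPS) of Salmonella enterica serotype minnesota at 100 ng/ml. By the labels, 6 arrays were unstimulated (0 h), 6 were at 2 h, 6 at 7 h and 5 at 24 h. These came from 3 pigs, labelled 2 males and 1 female, with a culture and a duplicate culture per time apart from pig 3 at 24 h. The number of arrays limits the precision.

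Endothelin 1 is cut from a longer precursor by furin-type proteases and then by the endothelin-converting enzyme ECE1. It acts through the receptors EDNRA, which drives contraction of smooth muscle, and EDNRB, which also clears the peptide. Endothelial cells are its best known source, and macrophages exposed to LPS are also known to release it. Activin A binds the type II receptors ACVR2A and ACVR2B, which recruit type I receptors such as ACVR1B and signal through SMAD2, SMAD3 and SMAD4. Follistatin (FST) and FSTL3 bind activin and block it, and BAMBI is a decoy receptor. Monocytes and macrophages are known to secrete activin A when stimulated.

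The labels of the arrays could not be relied on. EIF1AY, a Y-linked gene, was at 8.16 to 9.45 log2 intensity on some arrays and at 3.60 to 4.08 on the others, which contradicted the sex given in the label of 8 of 23 arrays (4 of 15 labelled male, 4 of 8 labelled female). For 0 of 22 arrays with a labelled duplicate culture was that duplicate the most similar array. Instead, 11 pairs of arrays were each other's most similar array over all probe sets. Both arrays of a pair carried the same pig label in 11 of 11 pairs and the same time label in 0 of 11. Comparisons between times are therefore given for arrays as labelled, and they show neither a response to LPS nor its absence. Whether the labels or the values were displaced was not tested.

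EDN1 varied over most of the scale of the array. Its log2 intensity ran from 3.61 to 10.58, with a median of 8.68, a range of 6.98 log2 units. Only 13 of 6765 genes (0.192%), EDN1 included, had a range at least as wide, and the median gene had a range of 0.96. INHBA varied little: it ran from 7.15 to 8.05 with a median of 7.68. That is a range of 0.90 log2 units or 1.87-fold, and 53.8% of genes had a range at least as wide. Its highest array and its 2 lowest were all among the 8 whose EIF1AY level contradicted the labelled sex, and without those 8 the range of INHBA was 0.41 and that of EDN1 5.60. A range of at least 2 log2 units was reached by 13.3% of genes, so EDN1 lay among these and INHBA did not. The files hold no detection calls. As a guide to dimness, the lower quartile of the probe sets lay between 4.39 and 4.54 on the arrays. EDN1 was below that of its own array on 2 arrays, and INHBA on 0.

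**Figure D1:**
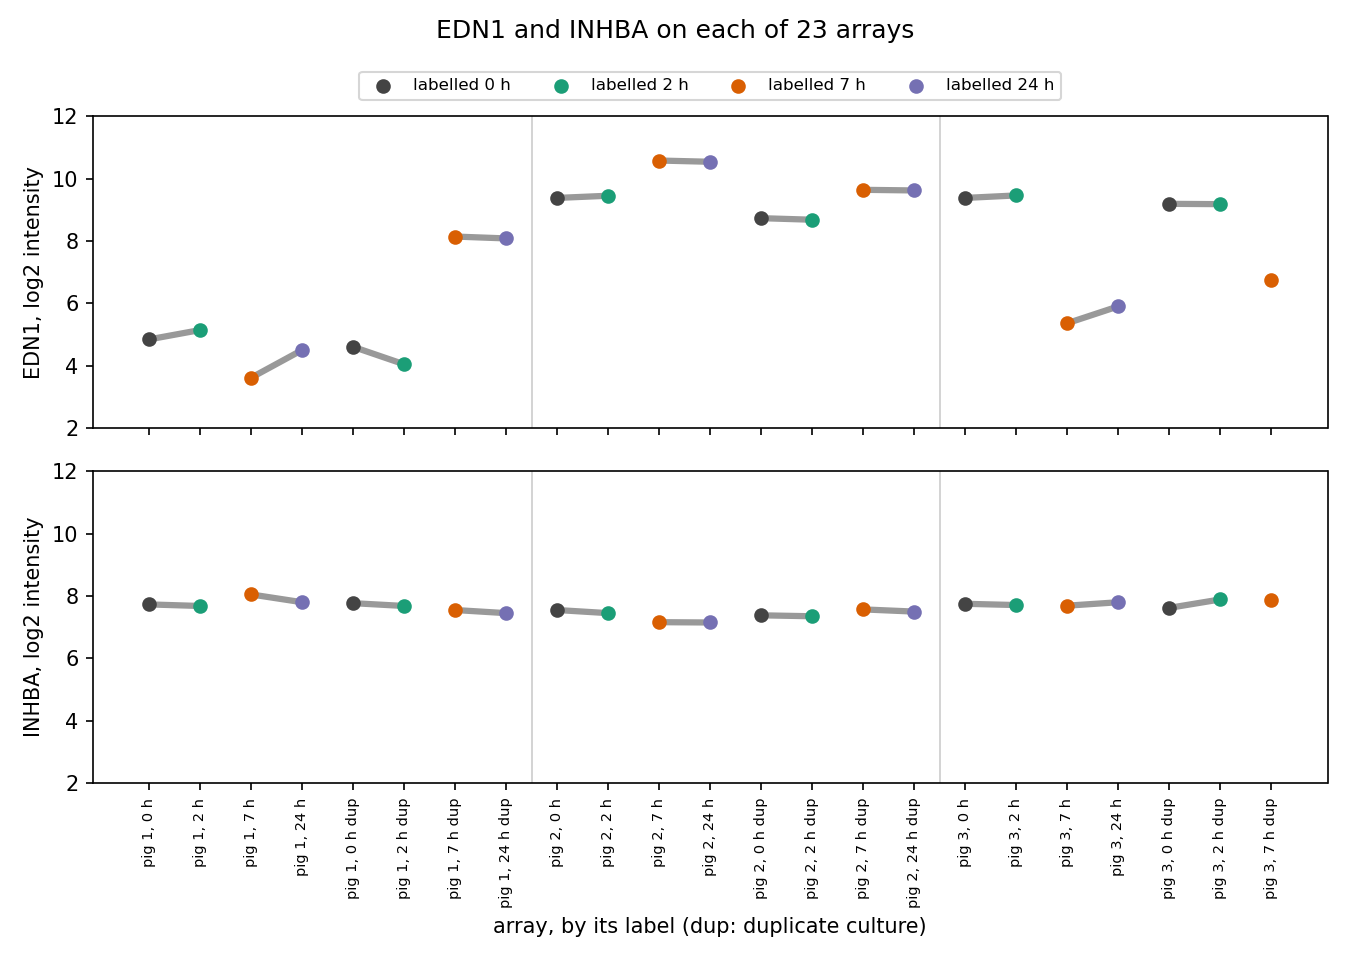
Log2 intensity of EDN1 (top) and INHBA (bottom) on each of the 23 arrays, each array placed by its label and coloured by labelled time; grey bars join the 11 pairs of most similar arrays. EDN1 runs from 3.61 to 10.58 and INHBA from 7.15 to 8.05 on the same scale, and paired arrays lie close together.

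Among arrays labelled pig 1, EDN1 was at 4.84 at 0 h, 5.14 at 2 h, 3.61 at 7 h and 4.50 at 24 h in the first culture. In the duplicate culture it was at 4.60 at 0 h, 4.04 at 2 h, 8.14 at 7 h and 8.08 at 24 h. Thus 6 of these 8 arrays were low, and the duplicates labelled 7 h and 24 h stood apart from them.

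Among arrays labelled pig 2, EDN1 was at 9.38, 9.45, 10.58 and 10.54 at 0, 2, 7 and 24 h in the first culture. The duplicate culture had 8.73, 8.68, 9.64 and 9.62 at the same labelled times. All 8 arrays were high, and the lowest of them exceeded every array labelled pig 1.

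Among arrays labelled pig 3, EDN1 was at 9.38, 9.46, 5.36 and 5.90 at 0, 2, 7 and 24 h in the first culture. The duplicate culture had 9.19, 9.18 and 6.76 at 0, 2 and 7 h. The 4 arrays labelled 0 h or 2 h were high here, and the 3 labelled 7 h or 24 h were lower than all of them. The widest gap in the ordered values of EDN1, 1.32 log2 units, separated 14 arrays at 8.08 or above from 9 arrays at 6.76 or below.

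INHBA had no such separation. Arrays labelled pig 1 had 7.73, 7.68, 8.05 and 7.80 at 0, 2, 7 and 24 h in the first culture. Their duplicates had 7.77, 7.68, 7.55 and 7.45. The highest value of all 23 arrays, 8.05, was on the array where EDN1 was lowest.

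Arrays labelled pig 2 had INHBA at 7.55, 7.45, 7.16 and 7.15 in the first culture, and at 7.38, 7.35, 7.57 and 7.50 in the duplicate. The 2 lowest values, 7.15 and 7.16, were on the 2 arrays where EDN1 was highest. Arrays labelled pig 3 had 7.75, 7.71, 7.69 and 7.80 in the first culture and 7.62, 7.89 and 7.86 in the duplicate. The widest gap in the ordered values was 0.19, between those 2 arrays and the other 21.

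Most similar arrays differed little in EDN1. The 11 pairs differed by a median of 0.07 log2 units, and by 0.01 to 0.89, with 7 pairs under 0.2. The 4 wider differences, 0.30, 0.54, 0.57 and 0.89, all fell in pairs whose EDN1 was below 6. Labelled duplicate cultures differed by a median of 0.92 and by up to 4.54 log2 units. For INHBA the median was 0.08 in most similar pairs (0.01 to 0.27) and 0.17 between labelled duplicates (up to 0.50). The pairs were picked for their similarity over all probe sets, which favours small differences. They also carried different time labels, and whether these hold was not tested. Their differences are therefore not a measure of the measurement error. The EDN1 range of 6.98 stood against a widest pair difference of 0.89, and the INHBA range of 0.90 against one of 0.27.

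Labelled time held 0.453% of the variance of EDN1 over the 23 arrays, labelled pig 61.6% and the most similar pairs 99.4%. For INHBA the shares were 3.40%, 57.7% and 91.7%. These shares overlap and do not sum, because each pair lies within a labelled pig. They also cannot be ranked against each other. A share rises with the number of groups even for random groups, and there were 3 labelled pigs but 12 pairs or single arrays. The pairs were moreover picked for similarity over all probe sets. Since each labelled pig held arrays of both EIF1AY levels, the share of labelled pig is not a measure of differences between animals.

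The design asks whether the genes changed after 2, 7 or 24 h of LPS. Averaging duplicates, EDN1 averaged 7.69 ± 2.57 on the log2 scale on the 0 h arrays (SD over labelled pigs, n = 3), 7.66 ± 2.66 at 2 h, 7.35 ± 2.39 at 7 h and 7.43 ± 2.31 at 24 h. All 4 groups overlapped. In the limma fit across 23999 probe sets with time and pig as terms, the difference of 2 h from 0 h was -0.03 ± 1.05 log2 (SE, adjusted p = 1.00). At 7 h it was -0.34 ± 1.05 (adjusted p = 0.993) and at 24 h -0.26 ± 1.05 (adjusted p = 0.967). The 95% interval at 24 h ran from -2.66 to 2.13, so changes of over 4-fold in either direction lay within it. Without the arrays labelled pig 3 the 7 h difference turned to 1.10 and the 24 h difference to 1.30. The SE of each was then 0.161, far below 1.05. Neither passed after adjustment over all probe sets (limma adjusted p = 0.538 and 0.24).

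INHBA had 7.63 ± 0.15 at the labelled 0 h, 7.63 ± 0.20 at 2 h, 7.65 ± 0.24 at 7 h and 7.58 ± 0.24 at 24 h (SD, n = 3 labelled pigs). These groups overlapped too. Its differences from 0 h were -0.0040 ± 0.07 at 2 h, 0.02 ± 0.07 at 7 h and -0.05 ± 0.07 at 24 h (SE), with limma adjusted p of 1.00, 0.993 and 0.920. The 95% interval at 24 h was -0.21 to 0.11. Neither gene passed in any of these comparisons, where 0.0125% of probe sets passed at 2 h, 0% at 7 h and 0.00417% at 24 h. An unadjusted p under 0.05 was reached by 521, 754 and 986 probe sets at 2, 7 and 24 h, without EDN1 or INHBA. Each most similar pair held a 0 h and a 2 h label or a 7 h and a 24 h label. The 2 h difference was thus taken within pairs of most similar arrays and was bound to be small. That neither gene passed at 2 h therefore tells nothing, and the SE of the 2 h difference does not measure the spread within those pairs. The SE of EDN1 was 1.05 although its most similar pairs differed by a median of 0.07.

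**Figure D2:**
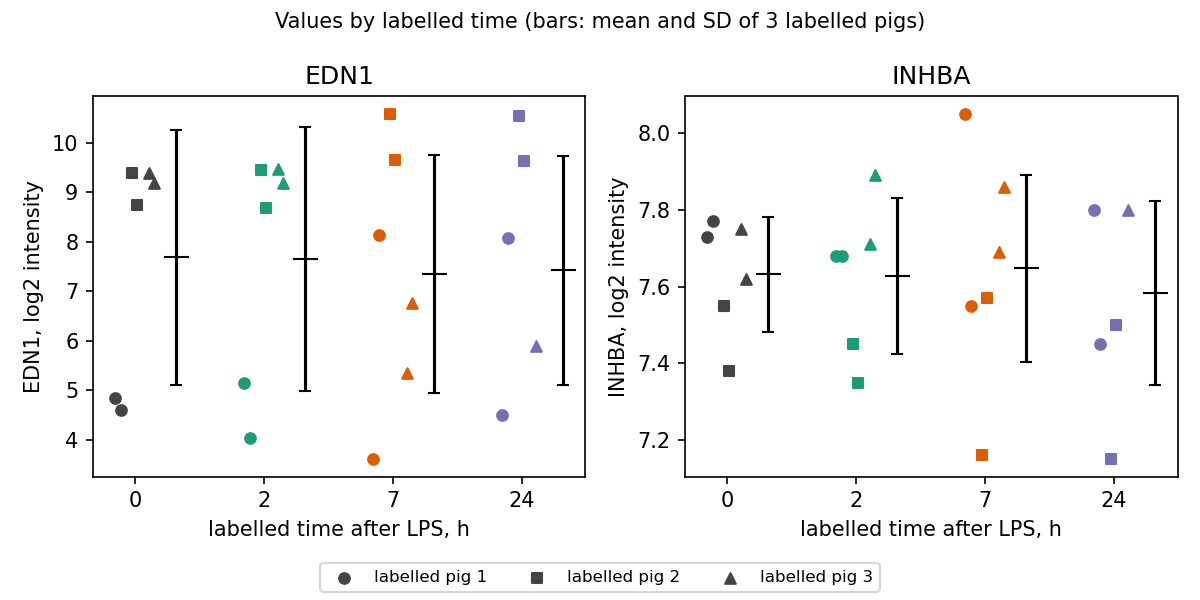
Log2 intensity of EDN1 (left) and INHBA (right) by labelled time in hours, with 1 point per array, its shape giving the labelled pig; black bars are the mean and SD of 3 labelled pigs. EDN1 holds low and high arrays at every labelled time, and the vertical axis of INHBA spans under 1 log2 unit.

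In bulk cultures, a different share of cells with the RNA and a different amount of RNA per cell cannot be told apart. A range of at least 2 log2 units was reached by 13.3% of all genes, beside which the counts of markers below stand. Of 7 macrophage markers, 3 had such a range. The 3 were CD14, the LPS co-receptor (7.13 to 11.00), CD163 (7.85 to 11.36) and MRC1 (6.20 to 8.71). CTSS, a lysosomal protease, was at 14.19 to 14.43 and AIF1 at 12.62 to 13.36. MARCO was at 5.58 to 6.15, while ITGAM, at 4.39 to 5.03, was near the lower quartile on the arrays. Of 9 endothelial markers, 1 had a range of at least 2 log2 units (TEK, 5.71 to 8.28), and their mean level ran from 5.75 to 6.30. CDH5 (4.12 to 4.61), KDR (3.83 to 4.37) and CLDN5 (4.47 to 5.22) were near the lower quartile on the arrays. FLT1 (4.96 to 5.62), TIE1 (5.01 to 6.35), VWF (5.59 to 6.38) and ESAM (5.63 to 6.89) were above it, and PECAM1, which macrophages also carry, was at 9.68 to 10.70. Over the arrays the mean level of the endothelial markers had r = 0.10 with EDN1 and -0.44 with INHBA, and single markers had r with EDN1 from -0.48 (PECAM1) to 0.54 (FLT1). The mean level of the macrophage markers had r of 0.19 with EDN1 and -0.33 with INHBA. Single macrophage markers had r with EDN1 from -0.39 (CD163) to 0.53 (CD14). Stromal markers had 3 of 9 with such a range (LUM, DCN and PDGFRB), a mean level from 5.32 to 6.94 and r of -0.27 with EDN1 and -0.17 with INHBA. Granulocyte markers had 4 of 4 with such a range, with r of -0.11 for EDN1 and -0.16 for INHBA. The mean level of T and NK cell markers had r of 0.57 with EDN1 and 0.06 with INHBA, where CD2 ran from 5.18 to 10.45 and CD3D, CD3E, CD3G and CD8A had ranges under 1 log2 unit. The part of these markers in the EDN1 and INHBA values was not tested.

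Of 11 endothelin system genes, 4 could be named. EDN1, itself a chosen member, was 1 of the 2 with a range of at least 2 log2 units, where 13.3% of all genes had one. The other was ECE1, at 4.81 to 7.09. The receptors varied less: EDNRB ran from 6.16 to 7.59 and EDNRA from 3.93 to 4.61, at or near the lower quartile. In the labelled comparisons 0 of 4 passed limma in either direction and 0 had an unadjusted p under 0.05, with median differences from 0 h of 0.00 at 2 h, -0.08 at 7 h and -0.13 at 24 h. The median over all probe sets was -0.01, -0.01 and 0.00 at these times.

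Of 22 activin system genes, 13 could be named and 3 had a range of at least 2 log2 units, where 13.3% of all genes did. None of the 3 was a ligand chain. BAMBI, the decoy receptor, ran from 5.42 to 9.33. The signal transducer SMAD3 ran from 4.23 to 6.67, and ACVR1, a type I receptor, from 8.85 to 11.17. INHBB, the beta B chain, stayed at 4.15 to 4.80, and INHA, the alpha chain of inhibins, at 6.11 to 6.76.

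Among receptors for activin, ACVR1B ran from 8.31 to 9.71, ACVR2A from 4.89 to 6.13 and ACVR2B from 4.74 to 5.26. The antagonist FST ran from 5.69 to 7.31 and FSTL3 from 6.22 to 7.12, while SMAD4, the shared partner of the SMADs, stayed at 9.55 to 10.14. By limma, 0 of 13 passed in either direction in the labelled comparisons. At 2 h and 7 h an unadjusted p under 0.05 was reached by 0 of 13. At 24 h it was reached by 1 of 13, beside 986 of 23999 probe sets. The median differences were 0.00, 0.02 and 0.06 at 2, 7 and 24 h. The median range of the 13 genes was 0.91, against 0.96 over all genes.

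Of 27 other secreted vascular and growth factors listed, 15 could be named and 8 had a range of at least 2 log2 units, where 13.3% of all genes did. The median range of the 15 was 3.03, beside 0.96 over all genes. The list was chosen with earlier results known, and its difference from other genes was not tested. VEGFA, an angiogenic factor, ran from 6.15 to 11.46. The EGF receptor ligand AREG ran from 3.83 to 7.99, and THBS1, an inhibitor of angiogenesis that also activates TGF-beta, from 7.43 to 11.29. FGF2, BMP4, ANGPT1 and ANGPT2, named after their values were seen, had ranges under 1. In the limma fit 0 of 15 passed in the labelled comparisons and 0 had an unadjusted p under 0.05, with median differences of 0.01, 0.24 and 0.12 at 2, 7 and 24 h.

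**Figure D3:**
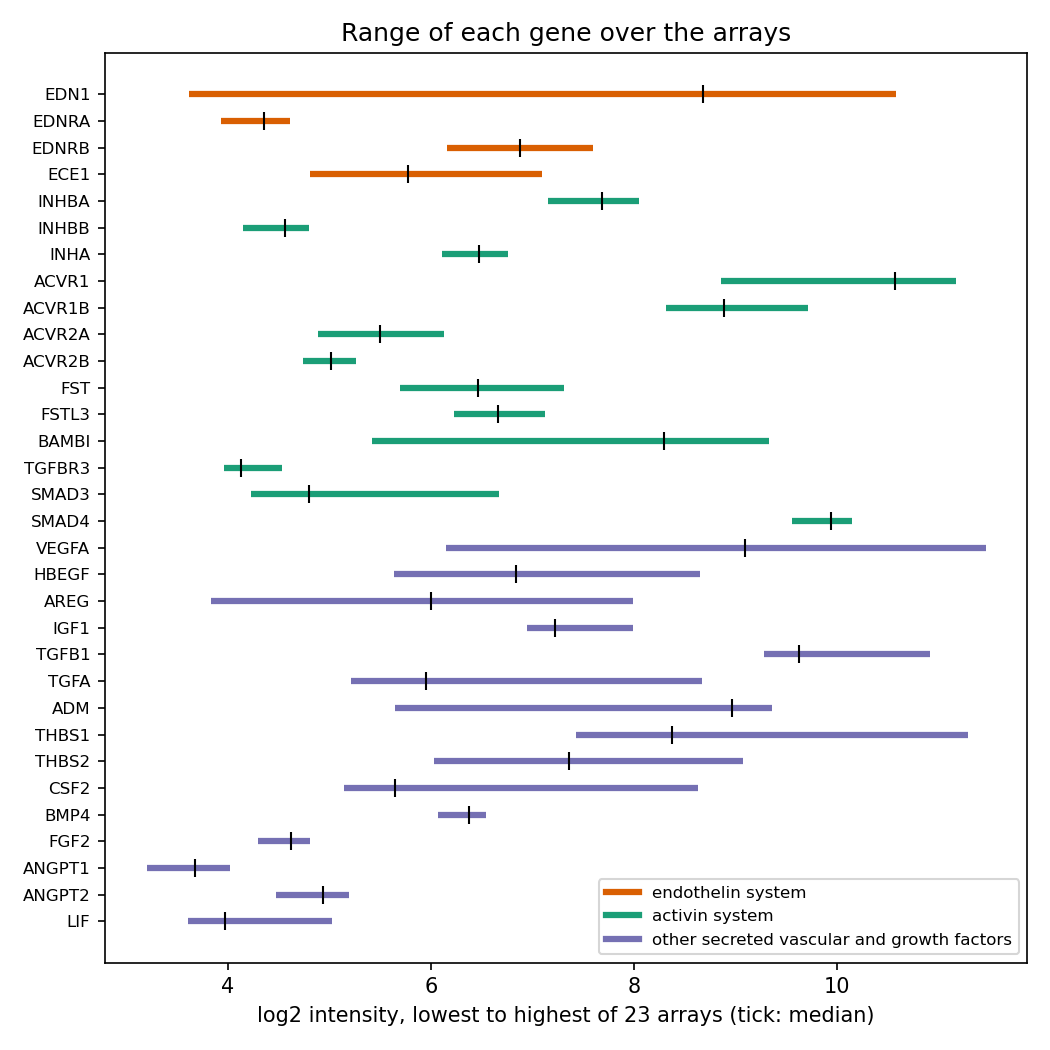
Horizontal bars run from the lowest to the highest log2 intensity of each named gene over the 23 arrays, with a tick at the median, for the endothelin system, the activin system and other secreted factors. EDN1 has the longest bar, 3.61 to 10.58, and INHBA one of 0.90 log2 units.

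The genes most like each member were ranked by Pearson's r over the 23 arrays, among 3212 genes (EDN1) or 3213 genes (INHBA) with a range of at least 1 log2 unit. The arrays come in similar pairs and are not independent, and r is given with no p. For EDN1 the 8 highest were SOCS1 (r = 0.98), a brake on cytokine signalling; IL15 (0.97), a cytokine that sustains NK and T cells; PLEK (0.96), a protein kinase C substrate of blood cells; and the co-stimulatory receptor CD40 (0.95). RBM18, an RNA-binding protein, the kinase PIM3, the interferon-induced MX2 and the adhesion molecule ICAM1 each had 0.95. SOCS1 ran from 4.07 to 9.72, IL15 from 5.45 to 10.94 and CD40 from 7.28 to 12.85. The lowest were CSNK1D (-0.96), PKDCC (-0.94), MID1IP1 (-0.94) and JAGN1 (-0.93).

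Because EDN1 lay on both sides of a gap, r was also taken within each side. The 8 genes had been picked by r over these same arrays, so r within a side is no independent support. The side below the gap was itself split. Its arrays labelled pig 1 had EDN1 at 3.61 to 5.14 and IL1B at 7.53 to 8.60. Those labelled pig 3 had EDN1 at 5.36 to 6.76 and IL1B at 12.70 to 12.98. An r below the gap can thus come from that split, which was not tested. On the 14 arrays above the gap, SOCS1 had r = 0.82, PIM3 0.81 and IL15 0.80, and on the 9 below it 0.91, 0.83 and 0.93. MX2 had 0.72 above and 0.84 below, PLEK 0.61 and 0.78, CD40 0.53 and 0.84, RBM18 0.52 and 0.76, and ICAM1 0.39 and 0.83. TNF, the early inflammatory cytokine, had r = 0.94 with EDN1 over all arrays, 0.22 above the gap and 0.77 below, and IL1B had 0.87, -0.48 and 0.85. So the order of EDN1 among the arrays where it was high differed from that of TNF or IL1B. EDN1 was at 8.73 and 8.68 on 2 arrays with TNF at 10.06 and 10.14, and at 8.14 and 8.08 on 2 arrays with TNF at 12.48 and 12.51. The 2 arrays with the highest EDN1, 10.58 and 10.54, also had the highest TNF, 12.56 and 12.54. Their lead in TNF over 12.51 and 12.48 was smaller than 0.09, the median TNF difference within most similar pairs. It therefore does not show a shared order.

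Some genes of the lists also followed EDN1 and were picked for it after their values were seen. ADM, the vasodilator peptide adrenomedullin, had r = 0.87 over all arrays (0.29 above the gap, 0.91 below). FST had 0.81 (0.66 and 0.70), ACVR2A 0.79 (0.68 and 0.79) and ECE1 0.72 (0.61 and -0.14). SMAD4 had 0.73 and ACVR1 0.71 over all arrays. FSTL3, the other activin antagonist, ran the other way, at -0.62, and the remaining activin system genes lay between -0.66 (INHBA) and 0.54 (SMAD3). The receptors of endothelin did not: r was 0.14 for EDNRA and -0.27 for EDNRB.

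For INHBA the 8 highest were CHMP4A, of the membrane-cutting ESCRT machinery (r = 0.87), TMEM55B and the nuclear receptor NR2F6 (0.86 each), ZBED5, the mitochondrial import factor TIMM21 and THAP3 (0.82 each), and the histone methyltransferase KMT5B and the nuclear exporter XPO1 (0.81 each). Of these, ZBED5 and XPO1 had the widest ranges, 1.71 and 1.72 log2 units. The lowest were MESDC1 (-0.84), the calcineurin subunit PPP3CC (-0.79), DPH3 (-0.79) and SERPINB2 (-0.78), a protease inhibitor of macrophages that ran from 4.57 to 9.98. With other measures of likeness 2 to 5 of these 8 stayed among the highest 8.

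INHBA and EDN1 ran against each other, with r = -0.66 over the 23 arrays and -0.68 over 12 values with the pairs averaged. Within the sides of the EDN1 gap r was -0.35 above and -0.19 below. In size the opposition was small: INHBA spanned 0.90 log2 units where EDN1 spanned 6.98. INHBA had r = -0.66 with TNF as well.

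**Figure D4:**
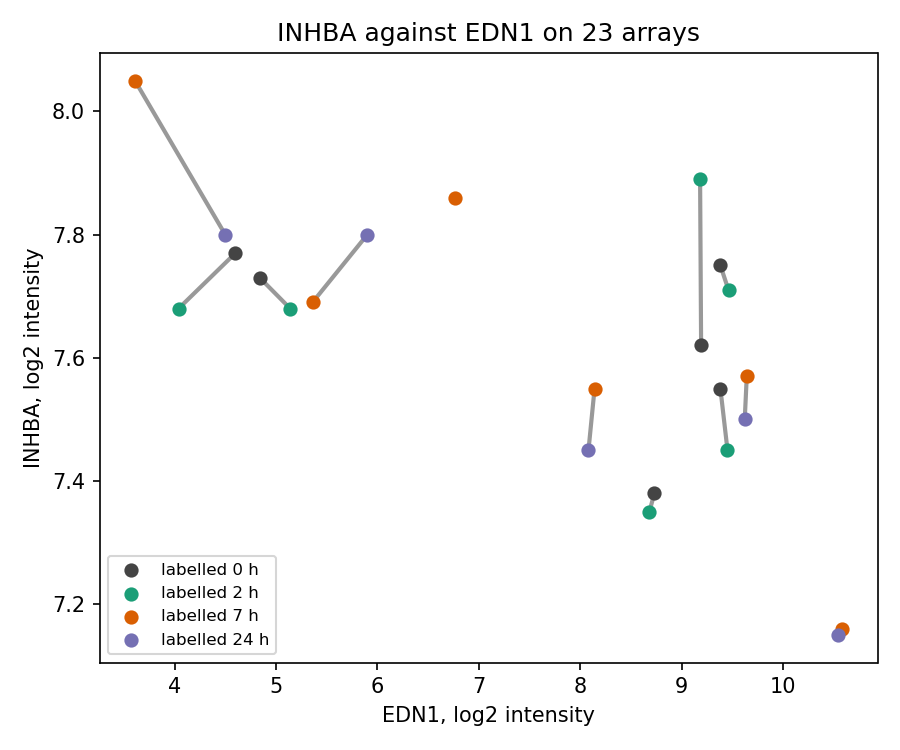
INHBA log2 intensity (vertical) against EDN1 log2 intensity (horizontal), 1 point per array coloured by labelled time, with grey lines joining the 11 most similar pairs. The 2 arrays with the highest EDN1 have the lowest INHBA, 7.15 and 7.16, and the array with EDN1 at 3.61 has the highest, 8.05.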

How the data were processed

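The authors deposited linear intensity values per probe set. The submitters' processing notes name affy and RMA, with no versions. RMA corrects background and normalizes between arrays, and array medians were 69.5 to 73.9. The values were put on the log2 scale here with no further normalization; the design had assumed log2 values. Of 24123 probe sets, 124 controls were left out. The platform annotation gave 1 gene for 10069 of the other 23999, several for 198 and none listed for 13732; symbols were updated by gene identifier (9961 found) through the RefSeq table of Sscrofa11.1, which lists EDN1 as protein coding and INHBA as biotype other. The probe set with the highest mean stood for a gene. No sequence or coordinate is given.

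Groups follow the labels. Assigning times by the order of the deposited columns had been proposed for these genes; it was not used, because column order and measured levels do not identify a sample. Duplicate cultures were averaged to 12 pig-by-time means. limma 3.58.1 (R 4.3.3) was fitted with time and pig (6 residual degrees of freedom) and adjusted by Benjamini-Hochberg over all probe sets at 0.05. The fit was first run on simulated data with independent noise, no pig effect, no similar pairs and labels taken as right. That run checked the code only, and does not bear on how the fit behaves with these arrays. The pig term follows the series' statement that the same pigs supplied each time. Deviations of labelled pigs correlated with those at 0 h at 0.87 to 0.97 at 2 h, 0.47 to 0.78 at 7 h and 0.27 to 0.76 at 24 h. The labelled 0 h and 2 h arrays were most similar pairs, and each labelled pig mixed EIF1AY levels. These correlations therefore do not show that a labelled pig is a single animal. Whether cultures beyond the 3 pigs were independent is not stated. Members, gene lists and the rule for named genes (the 8 highest and 4 lowest r per member, the 3 widest ranges and the direct partners per list) were chosen with earlier results of these data known. TNF and IL1B were named as cytokines of the LPS response, and EIF1AY for the label check.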

Additional observations from a re-analysis of the deposited data

How the results depend on the processing

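The labelled comparisons were refitted under 8 settings, which gave 48 differences of EDN1 and INHBA from 0 h. Of these, 0 passed the limma test, with adjusted p from 0.24 to 1, and 13 had a turned sign. Left-out pigs gave EDN1 differences of -0.0606 to 0.0237 at 2 h, -1.08 to 1.10 at 7 h and -1.18 to 1.30 at 24 h, with the highest at 7 h and 24 h without pig 3. For INHBA they gave -0.0619 to 0.0265 at 2 h, -0.0202 to 0.0719 at 7 h and -0.129 to -0.00494 at 24 h, the last against -0.0488 with all pigs. With cultures unaveraged and a random block for each pig at each time, EDN1 at 24 h was 0.178, and after quantile normalization INHBA at 7 h was -0.0177. Without the 8 arrays against their sex, EDN1 was 0.00396 at 2 h, 0.118 at 7 h and 0.0399 at 24 h, and INHBA -0.049 at 7 h. With no replicate block the differences were the same (EDN1 -0.339 at 7 h) and the SE of EDN1 was 1.84. The causes of the turned signs were not tested.

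The range of EDN1 was 6.51 with pairs averaged and 5.60 without those 8 arrays (both added after seeing the data). That of INHBA was 0.77, 0.41 and, after quantile normalization, 0.73. Of the 8 genes most like EDN1, 4 stayed by Spearman's rho. Of the 8 most like INHBA, 2 stayed by rho, 5 with pairs averaged and 3 after quantile normalization. Each member had 1 probe set, so no other probe set could be tried.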
